A study of Mus musculus with 2 samples.

Results

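The myeloid receptor Trem2, its adaptor and signalling enzymes, and other genes tied to Alzheimer's disease (AD) risk in human genetics were followed here through single nuclei of mouse cortex. The 10 genes were taken by symbol from the 31053 genes of the files: Trem2, Tyrobp, Inpp5d, Plcg2, Syk, Cd33, Abi3, Spi1, Bin1 and Picalm. All 10 were found, each as a single protein-coding gene, and the rule uses no measured value.

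Single nuclei of entorhinal cortex were sequenced in 2 libraries. Each was made from tissue pooled from 5 male APP/PS1 mice, a transgenic strain that deposits amyloid, so both groups have amyloid pathology and no wild-type group was analysed. Mice received the N-acyl amino acid C18:1-Leu, called OLE, at 25 mg/kg/day, dissolved in their alkaline drinking water, or DMSO as the vehicle in the same water. Dosing began at 15 months of age and tissue was taken at 18 months. With 1 library per condition the differences between OLE and vehicle have no replicate check, no test was run, and all intervals are 95% intervals for counting error alone, which do not include differences between mice.

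Trem2 is a surface receptor of microglia, the resident macrophages of the brain. It binds lipids, lipoproteins such as those carrying ApoE, and amyloid-beta, and has no signalling tail of its own. Its partner Tyrobp (DAP12) carries an immunoreceptor tyrosine-based activation motif (ITAM), which recruits the kinase Syk. Syk acts on the phospholipase Plcg2, while the lipid phosphatase Inpp5d (SHIP1) restrains signalling. Cd33 is a sialic acid receptor. Abi3 belongs to a complex that regulates actin, Spi1 encodes PU.1, a transcription factor that specifies myeloid cells, and Bin1 and Picalm encode proteins of membrane bending and clathrin endocytosis that many cell types use. Around amyloid plaques microglia take on a state called disease-associated microglia (DAM), in which homeostatic genes are low and genes such as Apoe and Cst7 are high, and Trem2 is known to be needed for full entry into it.

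The vehicle library held 6745 nuclei and 70845739 unique molecular identifiers (UMIs, each marking 1 captured RNA molecule), and the OLE library 6173 nuclei and 69485537 UMIs. Nuclei with the top 5% of doublet scores were left out, which kept 6379 and 5848. The median nucleus of the 2 libraries held 3989 and 6392 UMIs before this step. The libraries shared 14 barcodes, 2 of them among the microglia described here. Clustering without the 10 genes gave 1 cluster with 17 of 17 microglial markers raised, and its 337 vehicle and 270 OLE nuclei are called microglia-like. The other named types are oligodendrocyte-like, oligodendrocyte precursor-like (OPC-like), astrocyte-like, glutamatergic-like, GABAergic-like and vascular leptomeningeal-like nuclei, with between 82 and 1668 nuclei per library. The median depth of microglia-like nuclei was close in both libraries, at 2448 and 2348 UMIs. UMIs of a list of 21 neuronal genes made up 1.89% of their total in the vehicle and 1.76% in the OLE library. A large share of retained nuclei, 3153 vehicle and 2722 OLE, lay in clusters that stayed unnamed. In the largest of these, markers of several cell types were raised. The smaller ones had mostly glutamatergic markers raised but did not meet the naming rule. The glutamatergic-like clusters carried cortical markers such as Rorb, but no marker that separates entorhinal from other cortex was examined.

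The 250 bases before the start site of 4 of the genes are printed to show where the letters bound by PU.1, itself one of the 10, occur in them. Sequences are from RefSeq on GRCm38.p6, written in the direction of transcription, and capitals mark each match to the PU.1 core GAGGAA or its reverse complement TTCCTC. Entries were found for 6 of the 10 genes, with 7 windows because Syk has 2, and 5 of the 7 windows had a match. Over all 32851 RefSeq windows of this length, 23.3% had one.
Trem2 chr17:48346151-48346400 (+ strand): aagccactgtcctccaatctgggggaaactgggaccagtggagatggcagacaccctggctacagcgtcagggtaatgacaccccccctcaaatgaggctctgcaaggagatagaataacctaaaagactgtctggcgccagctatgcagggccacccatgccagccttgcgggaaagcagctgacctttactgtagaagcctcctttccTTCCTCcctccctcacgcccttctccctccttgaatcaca
Inpp5d chr1:87620062-87620311 (+ strand): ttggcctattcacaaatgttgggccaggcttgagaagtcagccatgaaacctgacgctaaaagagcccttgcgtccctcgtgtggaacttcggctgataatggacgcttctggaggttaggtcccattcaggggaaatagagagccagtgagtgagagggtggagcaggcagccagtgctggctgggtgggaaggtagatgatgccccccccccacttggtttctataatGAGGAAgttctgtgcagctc
Plcg2 chr8:117498025-117498274 (+ strand): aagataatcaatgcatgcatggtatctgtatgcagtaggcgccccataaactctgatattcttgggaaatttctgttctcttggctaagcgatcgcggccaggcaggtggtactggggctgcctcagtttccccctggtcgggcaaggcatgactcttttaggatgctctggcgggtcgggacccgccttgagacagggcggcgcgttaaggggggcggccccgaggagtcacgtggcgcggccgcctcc
Picalm chr7:90129963-90130212 (+ strand): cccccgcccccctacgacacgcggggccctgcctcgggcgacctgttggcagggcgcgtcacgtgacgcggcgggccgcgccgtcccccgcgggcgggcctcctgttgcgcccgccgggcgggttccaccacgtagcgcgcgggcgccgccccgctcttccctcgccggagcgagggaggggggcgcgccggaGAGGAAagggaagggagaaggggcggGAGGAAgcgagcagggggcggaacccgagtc
The match before Trem2 lay at position -40 from the start site and the match before Inpp5d at -20. The window before Plcg2 had none, and the window before Picalm, which is found in every cell type, had matches at -57 and -31. Syk had a match at -9 of its second start site and Cd33 at -226. These are matches of letters and not measured binding, and the files hold no readout of it.

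Trem2 (ENSMUSG00000023992, chromosome 17 of GRCm38, 48346401 to 48354147, plus strand) was the gene of the 10 with the largest difference between the libraries in microglia-like nuclei. It had 556 UMIs in the vehicle and 657 in the OLE library, although the OLE library held fewer microglia-like nuclei. This is a level of 632 UMIs per 1000000 UMIs of these nuclei (Poisson interval 581 to 687) in vehicle and 914 (846 to 987) in OLE. On the log2 scale OLE exceeded vehicle by 0.53 (binomial interval 0.37 to 0.70), or 1.45-fold, above the ratio of 94.3% of the 6120 genes with at least 50 UMIs in these nuclei. The other 9 genes lay within 1.3-fold of the vehicle level. So 1 of the 10 genes was at least 1.3-fold higher in OLE, against 11.8% of all genes past the minimum, and 0 were at least 1.3-fold lower, against 10.2% of all genes. Among genes with at least 500 UMIs, as Trem2 has, 2.85% of 526 genes were at least 1.3-fold higher, and among those that were also at least 2-fold above glutamatergic-like nuclei, 4.98% of 261. Of all 2036 counted genes at least 2-fold above glutamatergic-like nuclei, 12.8% were higher and 7.61% lower. The median log2 ratio was 0.076 over the 10 genes and -0.0015 over all genes.

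Gene length moved with these ratios. Trem2 spans 7.75 kb, of which 63.8% is exon, and among the 1224 genes with the shortest span (0.348 to 20.4 kb) 23.3% were at least 1.3-fold higher and the median log2 ratio was 0.12. Among the 1224 with the longest span, above 134.5 kb, 4.98% were higher and the median was -0.075. The part of gene length in the Trem2 value was not tested. Tyrobp, Cd33 and Abi3 are among the same shortest genes as Trem2, with log2 ratios of 0.21, -0.17 and -0.072. Of the 17 microglial markers 4 were at least 1.3-fold higher (C1qa, C1qb, Ctss and Laptm5) and 0 lower, against 11.8% and 10.2% of all genes. The summed level of the 17 markers was 11271 in vehicle and 12932 UMIs per 1000000 in OLE.

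The signalling partners of Trem2 had ratios of OLE to vehicle nearer to 0 than that of Trem2, and the difference from Trem2 was not tested. Tyrobp, the adaptor (ENSMUSG00000030579, chromosome 7, 30413760 to 30417585), had 135 vehicle and 128 OLE UMIs, or 153 and 178 per 1000000, with a log2 ratio of 0.21 (-0.15 to 0.57). Syk, the kinase that binds the phosphorylated ITAM (ENSMUSG00000021457, chromosome 13, 52583173 to 52648792), had 132 and 115 UMIs, or 150 and 160 per 1000000, with a log2 ratio of 0.092 (-0.28 to 0.46). Plcg2, which cleaves membrane phosphoinositide to release calcium signals (ENSMUSG00000034330, chromosome 8, 117498291 to 117635142), had 275 and 191 UMIs, or 313 and 266 per 1000000, with a log2 ratio of -0.23 (-0.51 to 0.04). For all 3 genes the counting interval of the ratio holds 0, so a difference was not detectable at this depth. The interval reaches past 1.3-fold in the upward direction for Tyrobp and Syk and in the downward direction for Plcg2. Plcg2 overlaps Gm27361, annotated on the other strand.

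Inpp5d and Cd33 were also close between the libraries over all microglia-like nuclei. Inpp5d (ENSMUSG00000026288, chromosome 1, 87620312 to 87720507) was counted most often of the 10 in microglia-like nuclei and so has the narrowest interval. Its 1504 vehicle and 1298 OLE UMIs gave 1710 and 1806 per 1000000 and a log2 ratio of 0.079 (-0.029 to 0.19). Cd33 (ENSMUSG00000004609, chromosome 7, 43524216 to 43544428, minus strand) had 127 and 92 UMIs, 144 and 128 per 1000000, and a log2 ratio of -0.17 (-0.58 to 0.22).

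Among the remaining genes, Abi3 (ENSMUSG00000018381, chromosome 11, 95830074 to 95842476, minus strand) had 238 and 185 UMIs, a log2 ratio of -0.072 (-0.36 to 0.21). It overlaps Zfp652, Phospho1 and Gngt2 on the other strand. Spi1 (ENSMUSG00000002111, chromosome 2, 91082390 to 91115756) had 185 and 159 UMIs, a log2 ratio of 0.073 (-0.24 to 0.39). The endocytic genes Bin1 (ENSMUSG00000024381, chromosome 18, 32377230 to 32435737) and Picalm (ENSMUSG00000039361, chromosome 7, 90130213 to 90213465) had 425 and 332 UMIs, and 454 and 421 UMIs. Their microglial log2 ratios were -0.065 (-0.28 to 0.15) and 0.18 (-0.012 to 0.38). Picalm overlaps 4 predicted genes on its own strand, Gm45220 to Gm45223, and how reads there were assigned was not examined. Bin1 overlaps A830052D11Rik, annotated on the other strand.

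**Figure D1:**
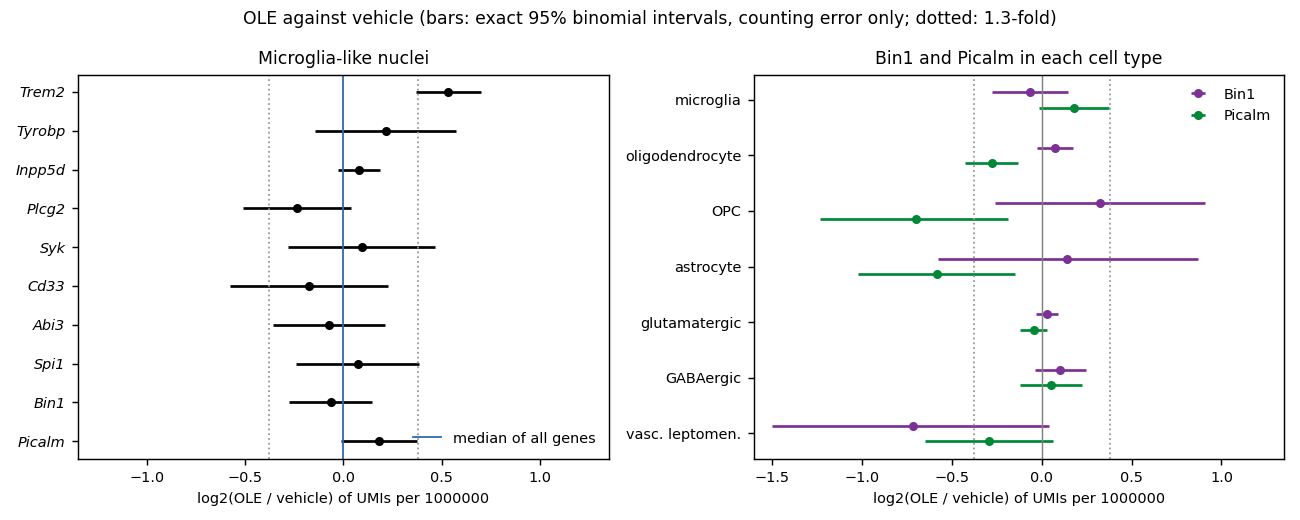
Log2 ratio of OLE to vehicle, from UMIs per 1000000 of each cell type, for the 10 genes in microglia-like nuclei (left) and for Bin1 and Picalm in 7 cell types (right), with exact 95% binomial intervals and dotted lines at 1.3-fold. Trem2, at 0.53, stands right of the upper dotted line, and Picalm lies left of the lower one in OPC-like (-0.70) and astrocyte-like (-0.58) nuclei.

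The choice of nuclei bears on the size of the Trem2 difference. When microglia were chosen from marker UMIs alone, without clusters, 370 vehicle and 308 OLE nuclei were taken, and the log2 ratio of Trem2 was 0.27. Of the 10 genes 0 were then at least 1.3-fold higher, against 12.7% of all genes. Plcg2 stood at -0.40 and Cd33 at -0.39, and the share of all genes that were lower was not counted for this choice. This choice added 44 vehicle and 45 OLE nuclei from outside the microglia-like cluster, in which neuronal genes made up 5.96% and 5.89% of UMIs and Trem2 stood at 408 and 253 per 1000000. Within the nuclei that both choices share, Trem2 stood at 644 and 954 per 1000000. Over all 15 alternatives the ratio of Trem2 lay between 0.27 and 0.60 and was above 0 in each. Those on the UMI minimum, resolution 0.8 and the variable genes left it unchanged at 0.53.

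A Trem2 UMI was found in 69.1% of vehicle and 77.8% of OLE microglia-like nuclei. With each nucleus reduced at random to 1000 UMIs, and 1 vehicle and 2 OLE nuclei of lower depth dropped, the shares were 43.8% (binomial interval 38.4 to 49.2) and 53.0% (46.8 to 59.1), with intervals that overlap. In glutamatergic-like nuclei, which should lack the gene, the thinned shares were 0.180% and 0.241%, with median depths of 20402 and 18658 UMIs before thinning. The thinned shares of Inpp5d, at 71.4% and 79.5%, and of Spi1, at 17.9% and 23.5%, were in the same order, also with overlapping intervals. For Tyrobp the thinned shares were 12.8% and 9.33%, in the opposite order to its levels, so no order is read from them. Plcg2 (26.5% and 23.9%), Syk (12.5% and 14.6%), Cd33 (12.2% and 11.6%), Abi3 (24.1% and 23.5%), Bin1 (37.2% and 32.5%) and Picalm (37.2% and 39.2%) had overlapping intervals.

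Across cell types the 10 genes fell into 2 kinds. Trem2, Tyrobp, Inpp5d, Plcg2, Syk, Cd33, Abi3 and Spi1 were at their highest level in microglia-like nuclei, and in every other named cell type none of these 8 was above 12.1 UMIs per 1000000. Bin1 and Picalm were found in all 7 cell types. This is a description, since the same nuclei were clustered, although without these genes.

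Trem2 stood 277-fold higher in microglia-like than in glutamatergic-like nuclei of vehicle mice (binomial interval 220 to 351) and 420-fold (331 to 540) in those of OLE mice. Its other levels lay between 2.18 per 1000000 in glutamatergic-like OLE nuclei and 9.23 in oligodendrocyte-like vehicle nuclei. The corresponding folds were 144 and 98.7 for Tyrobp, 360 and 474 for Inpp5d, and 190 and 141 for Plcg2. Syk had the lowest folds of the 8, at 40.9 and 48.1, with 138 and 116 UMIs in glutamatergic-like nuclei at 3.67 and 3.32 per 1000000. For Abi3 the folds were 849 and 449, and for Spi1 660 and 552. Spi1 had 0 UMIs in OPC-like and astrocyte-like nuclei of both libraries, where the Poisson intervals of the OPC-like nuclei reach up to 4.79 per 1000000 in vehicle and 5.77 in OLE.

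Not all UMIs of these genes were in the microglia-like cluster. It held 77.1% of all Inpp5d UMIs of the retained vehicle nuclei and 71.5% in OLE, 52.1% and 53.2% of those of Trem2, and 26.6% and 21.0% of those of Tyrobp. For Cd33 the shares were 49.4% and 31.7%. For Trem2, Tyrobp and Cd33 most of the rest lay in the 3 largest unnamed clusters. For Bin1 the shares were 4.25% and 3.46% and for Picalm 6.51% and 6.49%.

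**Figure D2:**
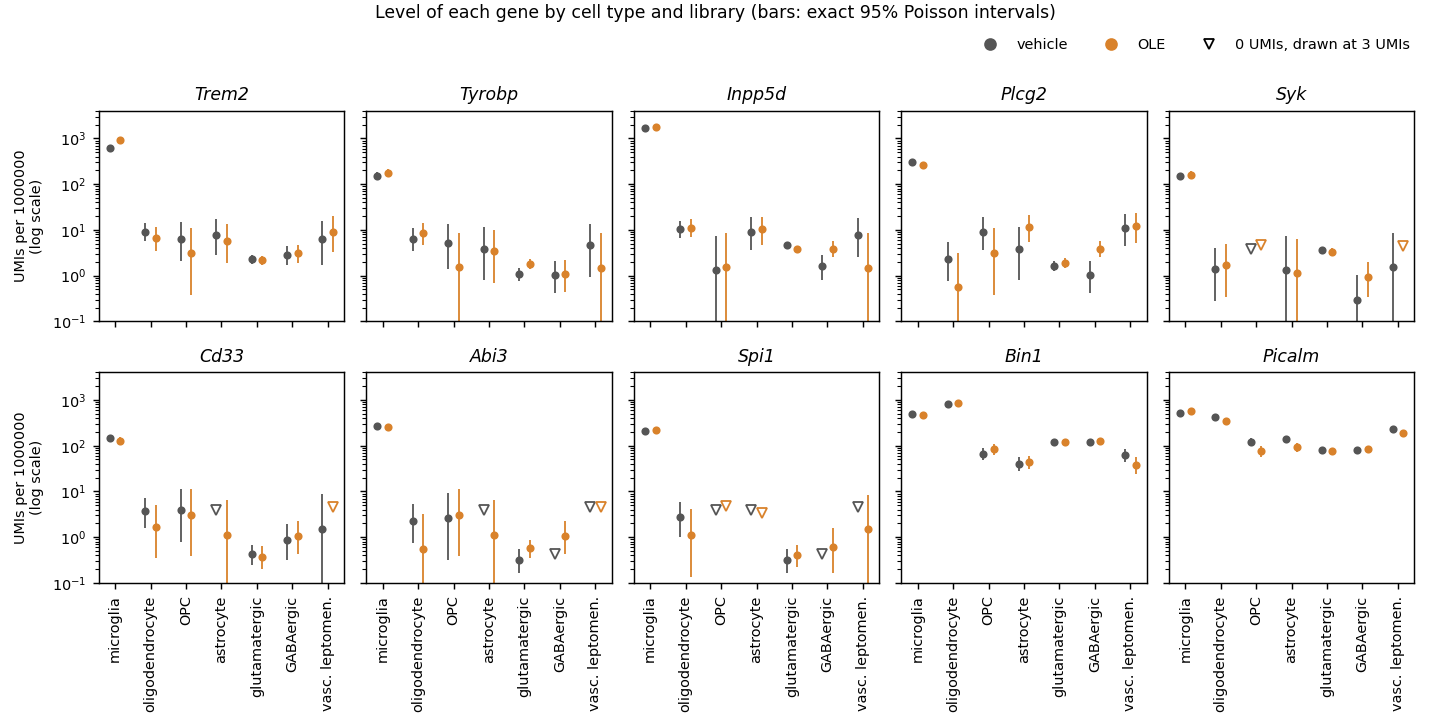
UMIs per 1000000 UMIs of each cell type (log axis) for the 10 genes in 7 cell types, grey for vehicle and orange for OLE, with exact 95% Poisson intervals and open triangles at the level of 3 UMIs where none was counted. 8 panels have a single high pair of points, in microglia, while Bin1 is highest in oligodendrocytes (814 and 856) and Picalm in microglia (516 and 586).

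Bin1, known as a gene whose isoforms differ between neurons and other cells, was highest in oligodendrocyte-like nuclei, at 814 UMIs per 1000000 in vehicle and 856 in OLE. Microglia-like nuclei followed at 483 and 462, then glutamatergic-like nuclei at 120 and 122, GABAergic-like nuclei at 118 and 127, OPC-like nuclei at 66.2 and 82.9, vascular leptomeningeal-like nuclei at 61.9 and 37.7, and astrocyte-like nuclei at 40.5 and 44.6. Glutamatergic-like and GABAergic-like nuclei did not differ beyond counting error, nor did vascular leptomeningeal-like and astrocyte-like nuclei. OPC-like and vascular leptomeningeal-like intervals overlapped in the vehicle library only. The isoforms of Bin1 cannot be told apart in these counts per gene.

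Picalm was highest in microglia-like nuclei, at 516 and 586 per 1000000, and next in oligodendrocyte-like nuclei at 429 and 354. Vascular leptomeningeal-like nuclei stood at 229 and 187, astrocyte-like at 137 and 91.5, OPC-like at 122 and 75.1, GABAergic-like at 80.9 and 83.9, and glutamatergic-like at 80.0 and 77.6. Astrocyte-like and OPC-like nuclei did not differ beyond counting error, nor did GABAergic-like and glutamatergic-like nuclei.

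Between the libraries Picalm was lower in OLE in the 3 glial types other than microglia. In OPC-like nuclei it had 94 vehicle and 48 OLE UMIs, a log2 ratio of -0.70 (-1.23 to -0.18), the gene of 2 counted there that was at least 1.3-fold lower, as were 11.1% of all genes past the minimum. In astrocyte-like nuclei it had 105 and 80 UMIs and a ratio of -0.58 (-1.02 to -0.15), again 1 of 2 genes counted, against 11.6% of all genes. In oligodendrocyte-like nuclei it had 930 and 628 UMIs and a ratio of -0.28 (-0.43 to -0.13), short of 1.3-fold, so 0 of 2 genes counted were lower there, against 6.45% of all genes. Bin1 gave 0.32 (-0.26 to 0.91), 0.14 (-0.58 to 0.87) and 0.073 (-0.027 to 0.17) in the same 3 cell types. In vascular leptomeningeal-like nuclei Bin1 was the gene of 2 counted that was at least 1.3-fold lower, with 40 and 25 UMIs and a ratio of -0.71 (-1.50 to 0.04), against 15.2% of all genes, and 0 of 2 were higher, against 18.9%.

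In neurons Bin1 and Picalm were close between the libraries, with ratios of 0.030 (-0.030 to 0.091) and -0.042 (-0.12 to 0.033) in glutamatergic-like nuclei and 0.10 (-0.039 to 0.25) and 0.052 (-0.12 to 0.23) in GABAergic-like nuclei. In GABAergic-like nuclei 0 of 2 genes counted passed 1.3-fold, against 17.4% of all genes higher and 2.92% lower. Of 7 genes counted in glutamatergic-like nuclei, Tyrobp was at least 1.3-fold higher, with 40 and 63 UMIs, against 13.2% of all genes, and none was lower, against 2.07%. These are levels of 1.06 and 1.80 per 1000000, far under its microglial level.

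Microglia-like nuclei were clustered again, without the 10 genes, and named from markers that do not include them. A homeostatic-like group (169 vehicle and 134 OLE nuclei) had 8 of 11 homeostatic markers raised, Tmem119 among its leading genes. A DAM-like group (157 and 119 nuclei) had 17 of 20 DAM markers raised, with Igf1, Gpnmb, Ank and Myo1e among its leading genes. DAM-like nuclei were 48.2% of the 2 groups in vehicle (42.6 to 53.7) and 47.0% in OLE (40.8 to 53.4). Also present were 13 macrophage-like nuclei and 15 nuclei, left unnamed, with neuronal, oligodendrocyte and astrocyte markers.

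Trem2 was higher in DAM-like than in homeostatic-like nuclei in both libraries. In vehicle it stood at 480 UMIs per 1000000 in homeostatic-like and 837 in DAM-like nuclei, a log2 ratio of 0.80 (0.55 to 1.05). In OLE it stood at 615 and 1369, a ratio of 1.15 (0.91 to 1.40). Tyrobp pointed the same way, with ratios of 0.38 (-0.13 to 0.90) in vehicle and 0.63 (0.084 to 1.19) in OLE.

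Inpp5d, Cd33 and Bin1 were lower in DAM-like nuclei. Inpp5d went from 2129 to 1334 per 1000000 in vehicle, a log2 ratio of -0.67 (-0.83 to -0.52), and from 2314 to 1614 in OLE, a ratio of -0.52 (-0.68 to -0.36). Cd33 gave -1.13 (-1.73 to -0.56) and -1.81 (-2.65 to -1.04), with 88 against 37 UMIs in vehicle and 66 against 18 in OLE. Bin1 gave -0.67 (-0.97 to -0.38) and -1.09 (-1.45 to -0.73). None of the intervals of these 3 genes holds 0 in either library.

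Plcg2 was lower in DAM-like nuclei in both libraries as well, with ratios of -0.37 (-0.74 to -0.018) in vehicle and -1.33 (-1.82 to -0.85) in OLE. At resolution 0.5 the vehicle ratio was -0.29 (-0.68 to 0.093), which holds 0. Syk (-0.20 and 0.29), Abi3 (-0.31 and 0.18), Spi1 (-0.22 and -0.30) and Picalm (-0.040 and 0.031) had intervals that hold 0 in both. In vehicle 2 of the 10 genes were at least 1.3-fold higher in DAM-like nuclei and 3 lower, against 19.6% and 19.3% of all genes past the minimum. In OLE 2 were higher and 4 lower, against 20.2% and 20.8%. When nuclei were split at the median of a marker score in place of clusters, the ratio of Tyrobp in vehicle was -0.037, and that of Trem2 was 0.51 in vehicle and 0.71 in OLE.

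**Figure D3:**
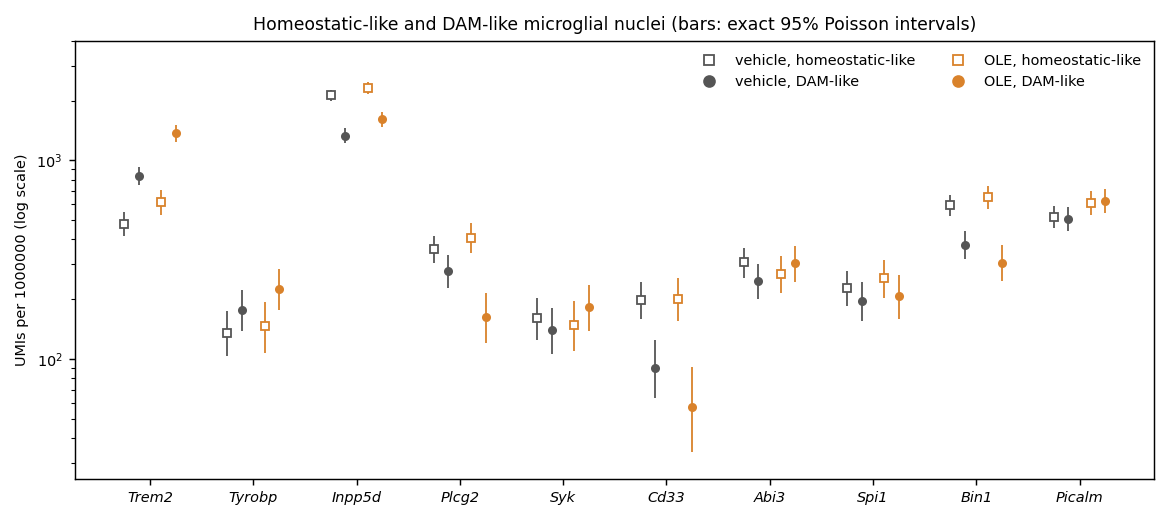
UMIs per 1000000 (log axis) of the 10 genes in homeostatic-like (open squares) and DAM-like (filled circles) nuclei of the vehicle (grey) and OLE (orange) libraries, with exact 95% Poisson intervals. Trem2 climbs from 480 to 837 and from 615 to 1369 between the groups, while Inpp5d, Cd33 and Bin1 descend in both libraries.

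Compared between the libraries inside each group, Trem2 was higher in OLE in both. In homeostatic-like nuclei it had 213 vehicle and 202 OLE UMIs, a log2 ratio of 0.36 (0.072 to 0.64), just short of 1.3-fold. In DAM-like nuclei it had 342 and 429 UMIs and a ratio of 0.71 (0.50 to 0.92). Both intervals lie above 0, but with microglia clustered at resolution 0.5 the homeostatic-like ratio was 0.24 (-0.095 to 0.58), which holds 0.

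Plcg2 differed between the libraries in DAM-like nuclei, from 113 to 51 UMIs and from 277 to 163 per 1000000, a ratio of -0.77 (-1.27 to -0.28). In homeostatic-like nuclei it had 159 and 134 UMIs, 359 and 408 per 1000000, and a ratio of 0.19 (-0.16 to 0.53). In DAM-like nuclei Syk (0.38, -0.17 to 0.94) was also at least 1.3-fold higher, and Cd33 (-0.66, -1.56 to 0.19) at least 1.3-fold lower, both with intervals that hold 0. Inpp5d (0.28, 0.098 to 0.45) and Picalm (0.30, 0.015 to 0.59) lay under 1.3-fold there, with intervals above 0. So 2 of the 10 genes were higher in OLE in DAM-like nuclei, against 14.3% of all genes, and 2 lower, against 15.6% of all genes. In homeostatic-like nuclei 0 were higher, against 12.3%, and 0 lower, against 14.1%. For nuclei split at the median score the share of all genes past 1.3-fold was not counted, so the values stand without it. Trem2 was then 1.31-fold higher in homeostatic-like nuclei. In DAM-like nuclei of this split Syk was 1.01-fold and Tyrobp 1.36-fold. The log2 ratios of Bin1, Plcg2 and Cd33 there were -0.381 (-0.73 to -0.034), -0.89 and -0.54. The DAM-like intervals of Inpp5d (0.15, -0.025 to 0.32) and Picalm (0.15, -0.13 to 0.43) then held 0.

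Beyond the 10 genes, 78 other genes of the Trem2 pathway were listed, of which 53 had at least 50 UMIs in microglia-like nuclei. Of these 5 were at least 1.3-fold higher in OLE (Apoe, Clec5a, Fcgr1, Fcgr2b and Itgb2) and 2 lower (Fgr and Lat2), against 11.8% and 10.2% of all genes, and the median log2 ratio was 0.014. Among the ligands, Apoe, a lipoprotein that binds Trem2 and is itself the strongest common genetic risk for late-onset AD, had 1819 vehicle and 2252 OLE UMIs and a ratio of 0.60 (0.51 to 0.69). App, the source of amyloid-beta, had 456 and 331 UMIs and a ratio of -0.17 (-0.38 to 0.036), and reads of the transgene were not separated here from those of the mouse gene. The sheddases that cut Trem2 from the surface, Adam10 and Adam17, had ratios of 0.17 (-0.14 to 0.48) and 0.26 (-0.11 to 0.62).

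Kinases and linkers next to Syk lay on both sides of 0, with a median of -0.13 over 13 counted genes. Lyn, a Src family kinase and the most counted of them, had a ratio near 0 (867 and 707 UMIs, -0.0030), and Fgr, another kinase of that family, was lower (67 and 35 UMIs, -0.65, -1.28 to -0.035). Among the 11 genes of the PI3K and AKT branch none passed 1.3-fold, and the catalytic subunit Pik3cg stood at -0.34 (-0.77 to 0.076). Of 10 genes of calcium signalling and further steps none passed either, with the calcium channel Itpr1 at -0.31, the transcription factor Nfatc1 at -0.26 and the NF-kB adaptor Malt1 at 0.34, all with intervals that hold 0.

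The receptor list was made for receptors that pair with Tyrobp or carry an ITAM or inhibitory motif. It is wider than that, as Itgb2, Fcgr1 and Csf1r carry no such motif themselves. The list held 4 of the 5 higher genes, out of 11 counted, where 11.8% of all genes were higher. Itgb2, the beta chain of complement receptor 3, had 45 and 64 UMIs and a ratio of 0.80 (0.23 to 1.38). The Fc receptors Fcgr2b (57 and 68 UMIs, 0.55) and Fcgr1 (58 and 63 UMIs, 0.41) were higher and Fcgr3 (112 and 71 UMIs, -0.37) stood lower, and since Fc receptor genes share sequence their separate counts are uncertain. Csf1r, the receptor for the main growth factor of microglia, had 763 and 725 UMIs and a ratio of 0.22 (0.069 to 0.37).

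Of 61 further AD risk genes 58 were in the files and 30 were counted in microglia-like nuclei. Of these 3 were at least 1.3-fold higher, Grn, Ctsh and Plekha1, and 4 lower, Tmem106b, Spred2, Jazf1 and Icam1, against 11.8% and 10.2% of all genes, with a median of -0.085. Grn encodes progranulin, a lysosomal and secreted protein, and had 164 and 211 UMIs and a ratio of 0.65 (0.35 to 0.96). The lysosomal proteases Ctsh (130 and 146 UMIs, 0.46, 0.11 to 0.81) and Ctsb (588 and 591 UMIs, 0.30, 0.13 to 0.47) stood on the same side, and Tmem106b, a lysosomal membrane protein, on the other (52 and 25 UMIs, -0.77, -1.52 to -0.051). Plekha1, which binds phosphoinositide, had 131 and 152 UMIs and a ratio of 0.51 (0.16 to 0.85), and Otulin, a deubiquitinase, 118 and 120 UMIs and a ratio of 0.32 (-0.063 to 0.69).

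On the lower side of this list, Spred2, an inhibitor of Ras signalling, had 142 and 85 UMIs and a ratio of -0.45 (-0.85 to -0.051). The kinase Ptk2b had 312 and 213 UMIs and a ratio of -0.26 (-0.52 to -0.0035). Snx1 (-0.21), Sort1 (-0.20) and Celf1 (-0.18) had intervals that hold 0. Mef2c, a transcription factor of homeostatic microglia, was near 0, with 1534 and 1243 UMIs and a ratio of -0.012 (-0.12 to 0.097).

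**Figure D4:**
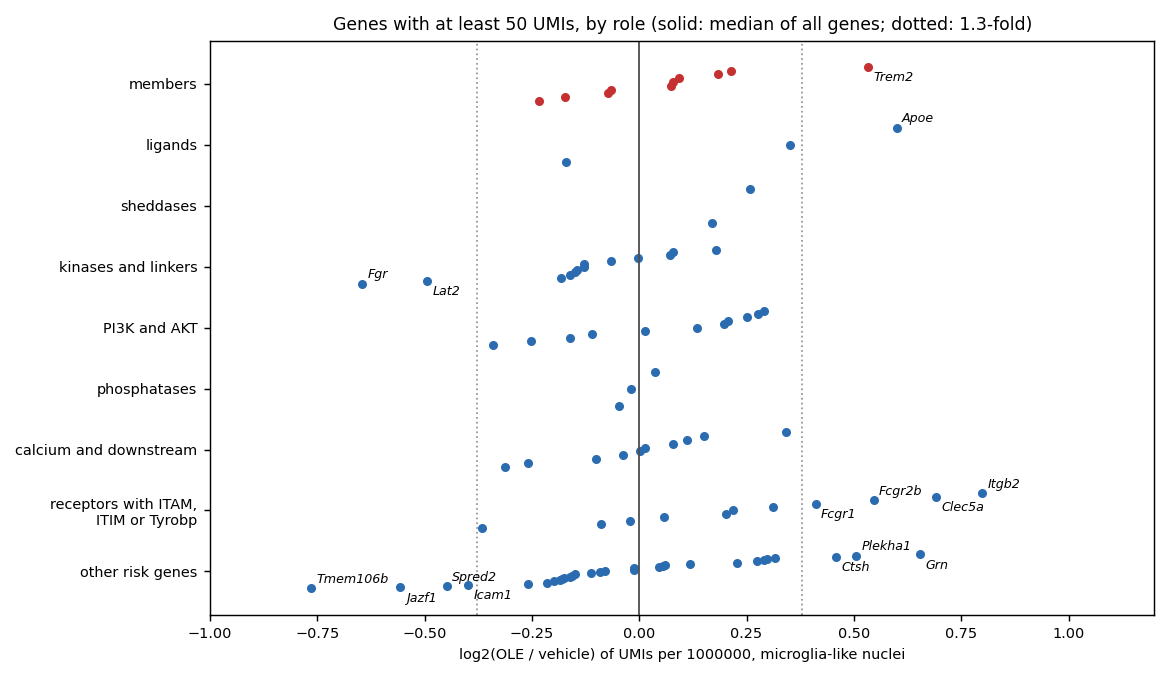
Log2 ratio of OLE to vehicle in microglia-like nuclei for the 10 genes (red) and for the listed pathway and risk genes with at least 50 UMIs (blue), 1 point per gene in rows by role, with dotted lines at 1.3-fold and a solid line at the median of all genes. Most points lie between the dotted lines, and of the 10 genes Trem2 (0.53) lies outside them.

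The DAM markers, a list without the 10 genes that overlaps the pathway list in Apoe, Axl and Lgals3 and the risk list in Ctsb, had 5 of 18 counted genes at least 1.3-fold higher in OLE (Apoe, Cd9, Cd63, B2m and Cd68) and 1 lower (Gpnmb), with a median of 0.29. For this and the following lists, 11.8% of all genes were higher and 10.2% lower. Of the 11 homeostatic markers 0 passed 1.3-fold in either direction, with a median of 0.039. Macrophage markers had 2 of 4 counted genes higher (Mrc1 and F13a1), with a summed level of 513 in vehicle and 589 UMIs per 1000000 in OLE. The neuronal list had 2 of 21 genes higher (Rbfox3 and Nrgn) and a median of -0.19, and the oligodendrocyte markers 1 of 7 higher (Cldn11) and 2 lower (Mag and Prr5l). The part of these lists in the Trem2 ratio was not tested. Without the macrophage-like and the unnamed small group the count of higher genes among the 10 was still 1, against 12.06% of all genes.

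Over the 14 values given by 7 cell types in 2 libraries, the levels of Lag3 (Pearson r = 0.997), Fcrls (0.997) and Ly86 (0.996) were the most like that of Trem2 among 14382 genes. Those most like Bin1 were St3gal3 (0.990), Arhgef2 (0.980) and Ctnna3 (0.966), and those most like Picalm were Adam10 (0.973), Wdfy2 (0.969) and Gm43848 (0.962). The 14 points share libraries, depth and cell types, so the correlations are a description of where these genes are counted.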

How the data were processed

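Nuclei from frozen entorhinal cortex were captured with 10X 3′ v3 chemistry. The authors aligned reads with Cell Ranger 3.0.1 to the mm10 pre-mRNA reference (the matrix header gives software version 3.0.2), so that intronic reads count, and deposited UMI counts per gene and nucleus, not normalized. The methods name doublet removal in Seurat 4.0.4, and whether it preceded deposit is not given in the sources used here.

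Scrublet (scanpy 1.11.5) called at most 0.130% of nuclei, so the top 5% of scores per library were removed. SCTransform (Seurat 5.3.0, sctransform 0.4.2, R 4.3.3) was run with 3000 variable genes, of which the 57 among the 10 genes and the lists were dropped, followed by 30 components and Louvain clustering at resolution 0.4, and 15 components and 0.3 within microglia. A marker counted as raised in a cluster at 4-fold or more over the 10th percentile of clusters, if found in at least 10% of nuclei. A cluster was named where at least 3 markers of a type, and a minimum share of its list, were raised and a further condition held. Either a marker of that type was among its 10 leading genes, or a large share of that list, and of no other list, was raised. With several candidate types, markers among the leading genes counted first. A subcluster needed at least 3 markers raised at least 1.5-fold and a marker of its list among its 10 leading genes. These naming rules were set after clusters were seen. For each cell type of each library UMIs were added up and scaled per 1000000. Ratios carry exact binomial and levels exact Poisson intervals at 95%. On simulated data 96.1% of the ratio intervals held the true value. The simulation drew independent Poisson counts, the model that the intervals assume, so it checks the calculation only. It does not cover UMIs that cluster within nuclei. Genes needed 50 UMIs over both libraries to be counted, and cell types 50 nuclei. No ambient RNA was subtracted. Positions are from GENCODE vM21 on GRCm38.

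The 10 genes and all lists were chosen with earlier results of these data known, and the lists were written from general knowledge. Genes named from the pathway and risk lists are the 5 highest and 5 lowest ratios with at least 100 UMIs. Others named beside them (App, Adam10, Adam17, Lyn, Csf1r, Mef2c, and all called genes under 100 UMIs) were chosen after their values were seen. The genes most like Trem2, Bin1 and Picalm have at least 200 UMIs. Alternatives changed doublet removal, clustering, the choice of microglia, scaling, thinning and the minimum. Leaving out small subclusters, the tenth of nuclei richest in neuronal UMIs, or shared barcodes was added after seeing the data. The software was Python 3.11.15 with numpy 2.4.6, scipy 1.17.1, pandas 2.3.3 and matplotlib 3.10.9.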

Additional observations from a re-analysis of the deposited data

Results flagged for a closer look

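Plcg2 had values of different sign in the microglial groups, with a log2 ratio of OLE to vehicle of -0.77 in DAM-like nuclei, where it had 113 and 51 UMIs, and 0.19 in homeostatic-like nuclei, an interval that holds 0 (-0.16 to 0.53). Picalm stood at 0.18 in microglia-like nuclei, with an interval that holds 0 (-0.012 to 0.38) and a value of -0.0096 when microglia were chosen by markers without clusters, and in the other glial types it had ratios of -0.28 in oligodendrocyte-like, -0.70 in OPC-like and -0.58 in astrocyte-like nuclei. What drew attention is the different sign of the values between cell types of the same 2 libraries, which for Picalm depends on how microglia were chosen. With 1 library per condition the differences between cell types were not tested.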

How the results depend on the processing

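The median log2 ratio of the 10 genes in microglia-like nuclei was 0.076, and the count at least 1.3-fold higher was 1, against 11.8% of all genes. In the alternatives on doublets, clustering, scaling, the minimum and neuronal RNA, and in those added after the data had been seen, the count stayed 1. The share of all genes that were higher lay between 7.02% (at least 100 UMIs) and 16.45% (no minimum) in these alternatives. Some of the alternatives could not move the count. Each of the 10 genes had at least 219 UMIs, so a changed minimum left every ratio as it was. Resolution 0.8, and keeping the listed genes among the variable genes, gave the same numbers of microglia-like nuclei and the same ratios. With microglia chosen by markers without clusters the median was -0.13, the count 0, against 12.7% of all genes, and the ratio of Trem2 0.27. Plcg2 then stood at -0.40 and Cd33 at -0.39, and the share of all genes that were lower was not counted. With nuclei thinned to 1000 UMIs the median was 0.17 and the count 3 (Trem2, Syk and Spi1), against 12.25% of all genes. Plcg2 stood at -0.39 after thinning, and the share of all genes that were lower was not counted here either. In the marker choice the added nuclei carried more neuronal UMIs and less Trem2, and the cause was not tested for the marker choice or for thinning. The DAM-like to homeostatic-like ratio of Tyrobp in vehicle, 0.38 from clusters, was -0.037 when nuclei were split at the median score. No paired analysis was possible because each condition has 1 library and the labels give no replicate numbers, and leaving out a replicate is not possible either. The intervals leave out variation between mice and pools, which cannot be told apart from the treatment. Tyrobp, Syk and Cd33 were the least counted of the 10 in microglia-like nuclei, and their intervals reach past 1.3-fold. The intervals of Plcg2 and Spi1 do so as well.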

Other observations

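An unnamed cluster led by mitochondrial and ribosomal genes (383 vehicle and 448 OLE nuclei, median 1215 UMIs) held Tyrobp at 165 and 138 UMIs per 1000000, near its microglial levels of 153 and 178. Trem2 stood there at 118 and 102, Inpp5d at 26.2 and 27.4, Abi3 at 19.4 and 13.2, Spi1 at 15.9 and 6.08, and Syk at 3.42 and 3.04, all under their microglial levels. Inpp5d, the most counted of the 10 in microglia-like nuclei, was therefore counted less often than Tyrobp in this cluster (23 and 27 against 145 and 136 UMIs) and more often in microglia-like nuclei (1504 and 1298 against 135 and 128). Tyrobp spans 3.83 kb and Inpp5d 100 kb.

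The 2 largest unnamed clusters, one mostly of vehicle (2214 and 302 nuclei) and one mostly of OLE nuclei (252 and 1714), held Trem2 at close levels, 37.4 and 29.9 per 1000000 in the first and 33.5 and 34.4 in the second. Cd33 stood at 13.5 and 16.6 in the first and 12.0 and 16.8 in the second. In GABAergic-like nuclei Plcg2 had 7 vehicle and 25 OLE UMIs and Inpp5d 11 and 25, under the minimum of 50 over both libraries.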
